A study of Mus musculus with 20 samples.

Results

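The comparison described here is that of H3K27ac, acetylation of a lysine in the tail of histone H3, between neuronal progenitors and neurons at day 1 of their differentiation. Its members are all 140641 regions of the authors' H3K27ac table for the differentiation stages, so no region was selected by its value. For each region the difference is the day 1 value minus the progenitor value on a log2 scale. It comes from 4 of the 20 samples of a mouse series, 2 ChIP-seq libraries of progenitors (group label NP) and 2 of day 1 neurons (TND1). All carry the strain label 159.2, and none of the 4 carries a treatment label; the NMDA and DMSO treatments named in the shared protocol text are labels of other samples. The stage of neurons at day 10 (TND10, 2 libraries) has a column in the same table and is used below only to class regions or to set values side by side. The labels do not say whether libraries with the same group label are separate cultures. No link from regions to genes was used here, so the cell type labels were not checked against marker genes, and genome positions of the regions were not analysed here.

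H3K27ac is laid down by the acetyltransferases p300 and CBP and removed by histone deacetylases. The mark is found at promoters of transcribed genes and at active enhancers, the distal sequences that drive expression in particular cell types, and it is widely used to tell active enhancers from silent or poised ones. When progenitors leave the cell cycle and become neurons, enhancers of the progenitor programme lose the mark and enhancers of neuronal genes gain it. Long acetylated stretches often lie at strongly transcribed genes, where many neighbouring elements are acetylated together.

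The authors deposited 1 value per region and stage, with both libraries merged, so the values carry no replicate error and no test between the stages was possible. A level below is a log2 ratio, with 16 added to the merged reads of the stage and to the scaled reads of a reference. The nature of the reference is not given in these sources, but it is the same for every stage of a region and cancels in the difference. Whole reads could be recovered for 140640 of the regions. They came to 18.0 M in progenitors and 15.3 M at day 1 (M stands for 1e+06 reads), and the median region held 24 reads at either stage. No source used here says whether the libraries had been brought to equal depth, so values are given as deposited, with each column centred on its median, and with reads scaled to equal totals. These totals count only reads within regions. Equal totals would therefore also remove any difference in the mark shared by all regions, and are not a correction for depth alone. Centring shifted every difference by -0.0059, and scaling to equal totals shifted the differences by a median of 0.14, which took the median difference from -0.06 to 0.073. The added 16 reads draw weak regions toward no change: a region with under 16 progenitor reads, as 32.2% were, cannot come out 2-fold lower, and the median region needs 64 day 1 reads to come out 2-fold higher.

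Most regions differed by less than 2-fold between the stages. The median difference was -0.06, the middle part of the distribution between the quartiles ran from -0.43 to 0.34, and from the lowest 1% to the highest 1% it ran from -1.60 to 1.83. As deposited, 7801 regions, or 5.55% of all tested, were at least 2-fold lower at day 1, and 9608, or 6.83%, were at least 2-fold higher. After centring these shares were 5.57% and 6.55%. With equal totals they were 3.34% and 9.23%, so that higher regions made up 73.4% of all those past 2-fold in place of 55.2%. At 4-fold the counts as deposited were 502 lower and 876 higher, and at 8-fold 42 lower and 30 higher. The tail of large differences therefore held more rises than falls at 4-fold and more falls than rises at 8-fold. With equal totals the counts at 8-fold were 25 lower and 53 higher, so the order at the far end turns with the scale.

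**Figure D1:**
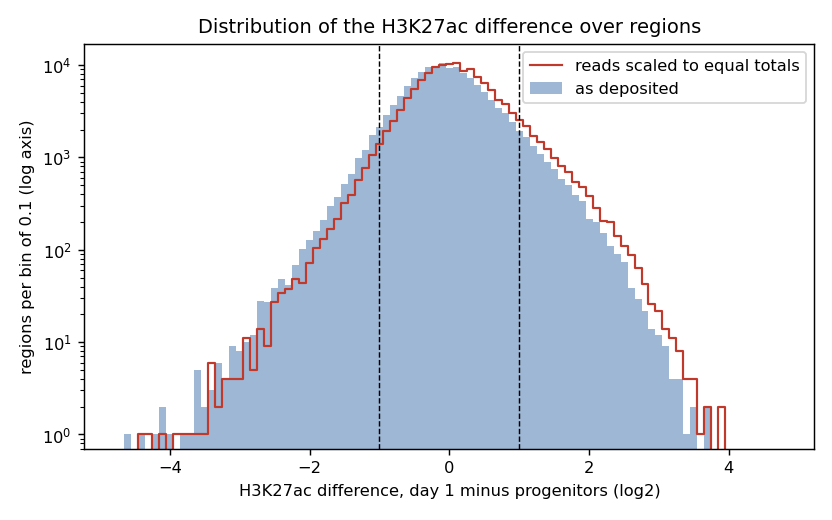
Number of regions (log axis) in bins of 0.1 of the H3K27ac difference, day 1 minus progenitors, as deposited (bars) and with reads scaled to equal totals (line); dashed lines mark 2-fold. As deposited, 5.55% of regions lie at or below the lower line and 6.83% at or above the upper one.

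The 6 largest falls among regions with at least 100 reads in both stages together were from regions strongly marked in progenitors. That follows in part from the choice, since the progenitor value enters the difference that ranks regions. Most reads by which these regions passed the read filter were progenitor reads. Regions are named by the number in the authors' identifier. Intervals are exact binomial (Clopper-Pearson, 95%), cover counting error only and do not allow for the choice of extremes. Region 111238, 1038 bp wide, held 3187 reads in progenitors and 116 at day 1, at levels of 6.50 and 1.90. Its reads were 27.5-fold lower (22.8 to 33.4), and the log2 difference was -4.60. On both its sides by number, region 111237 went from 737 to 19 reads (38.8-fold lower, 24.7 to 64.8) and region 111239 from 568 to 15 (37.9-fold lower, 22.8 to 68.1). All 3 had been among the strongly marked regions of progenitors and were near the reference at day 10, with levels of 0.35, 0.03 and 0.02.

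Region 111218, 1140 bp wide, held 794 progenitor reads and 30 at day 1 (26.5-fold lower, 18.4 to 39.5). Region 76528 started highest of the 6, at a level of 6.92, and went from 3297 to 183 reads (18.0-fold lower, 15.5 to 21.0). Region 97957 went from 2296 to 133 reads (17.3-fold lower, 14.5 to 20.7). The last 2 still stood above the reference at day 1, at 2.87 and 1.63, while region 111218 was at 0.14. With equal totals the 6 differences lay between -4.38 and -3.74.

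The 6 largest rises began from weakly marked regions, at progenitor levels between -0.71 and 1.33. Low starting levels follow in part from ranking by the difference. Most reads by which these regions passed the read filter were day 1 reads. Region 86133, 458 bp wide, held 22 reads in progenitors and 483 at day 1, a rise of 22.0-fold (14.3 to 35.4), from a level of -0.14 to 3.58. Region 76849 went from 26 to 470 reads (18.1-fold higher, 12.2 to 28.0), region 28515 from 35 to 555 (15.9-fold, 11.3 to 23.0) and region 109186 from 28 to 432 (15.4-fold, 10.5 to 23.5). These 4 had progenitor levels below 0, that is, fewer reads than the scaled reference. Regions 86152 and 115841 had 126 and 92 progenitor reads and 1796 and 1150 at day 1, with day 1 levels of 5.01 and 4.09. With equal totals the 6 differences lay between 3.53 and 3.89.

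What the same regions held at day 10 differed among the rises. Region 115841 had 1867 reads there, above its day 1 count, and region 86152 had 1290. Region 76849 had 51 reads and a level of -0.03, and region 86133 had 81 and a level of 1.21. Of the 6 falls, region 97957 had more reads at day 10 (158) than at day 1 (133), and the other 5 had fewer. These counts are not scaled: reads in regions, which depend on the mark as well as on depth, came to 11.2 M at day 10 and 15.3 M at day 1.

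The difference ran against the progenitor level. In 10 equal classes of progenitor level, the median difference was 0.40 in the lowest and -0.48 in the highest, going down at each class between. The share at least 2-fold higher was 17.0% in the lowest class and 1.49% in the highest, and the share at least 2-fold lower 0.014% and 19.6%. Against these stand 6.83% and 5.55% over all regions. By fixed levels, the 14914 regions below the reference in progenitors had a median of 0.39, and the 77931 regions between 0 and 1 a median of 0.00. The medians were -0.36 between 1 and 2, -0.45 between 2 and 3 and between 3 and 4, -0.47 between 4 and 5, -0.53 between 5 and 6 and -0.60 at 6 and over.

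The progenitor value enters both the class and the difference, so this way of classing fixes part of the slope. Classes were therefore set again by other values. By the mean of both stages, the medians were 0.00 in each of the 4 lowest classes, between -0.04 and -0.03 in the next 4, -0.11 in the ninth and -0.37 in the highest. By the day 10 value, which is not part of the difference, the median was 0.07 in the lowest class, between -0.07 and 0.00 in the next 8 and -0.23 in the highest. By the day 1 value, which works in the opposite direction, the median went up from -0.32 in the lowest class to 0.34 in the ninth and then stood at -0.21 in the highest. The lower day 1 signal of the most strongly marked regions was thus present in each of the 4 ways of classing, and the slope over the weaker regions was not. With equal totals the median of the highest class was -0.26 by the progenitor value and -0.14 by the mean, but -0.01 by the day 10 value and 0.02 by the day 1 value, so its direction depends on the scale where progenitors do not set the class.

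**Figure D2:**
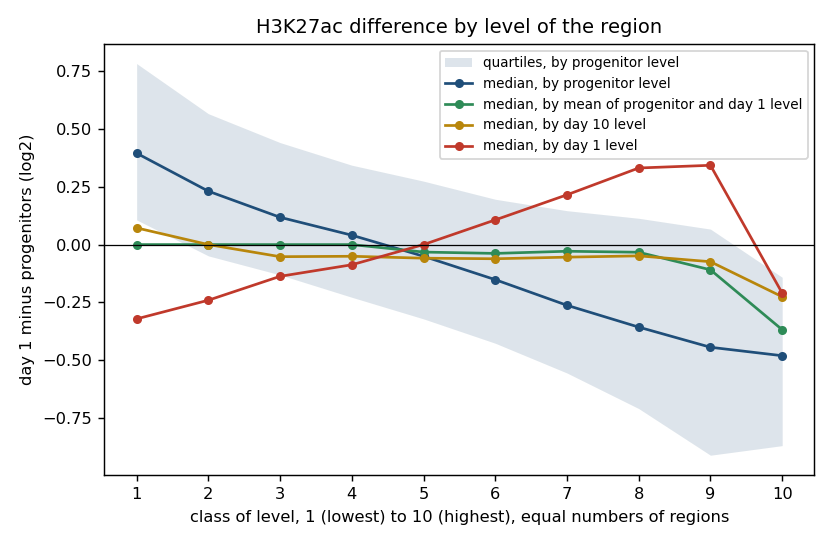
Median H3K27ac difference (log2, as deposited) in 10 equal classes of region level, with classes set by the progenitor value, the mean of progenitor and day 1 values, the day 10 value or the day 1 value; the band gives the quartiles for the progenitor classes. The 4 lines part over the weaker classes and all lie below 0 in the highest, between -0.48 and -0.21.

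Regions strongly marked in progenitors were lower as a group, most of them by less than 2-fold. The progenitor value that picks them is part of the difference, so part of this follows from the choice. Of the 2883 regions with a progenitor level of at least 5, 472 (16.4%) were at least 2-fold lower at day 1 and none was 2-fold higher as deposited. With equal totals 8.71% were lower and 0.069% higher. Their quartiles were -0.84 and -0.31 around a median of -0.55 (-0.56 centred, -0.32 with equal totals). The median region of this set held 1915 progenitor reads and 1335 at day 1, and its width was 1059 bp.

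The strong regions held a smaller share of reads at day 1. They were picked on the progenitor value, are 2.05% of regions, held 35.7% of all progenitor reads in regions and 28.8% of those at day 1, with 6.42 M reads in progenitors and 4.41 M at day 1. The total over all regions was 2.67 M reads smaller at day 1 as deposited, a difference that equal totals remove by construction. Regions with a progenitor level of 3 or more held 12.5 M reads in progenitors and 9.15 M at day 1, those between 1 and 3 held 3.66 M and 3.53 M, and those under 1 held 1.85 M and 2.64 M. The 1406 regions with the most reads at each stage, the highest 1%, held 24.1% of reads in progenitors and 21.0% at day 1. The recovered reads were thus spread more evenly over the table at day 1, a statement about shares that no scaling of a column alters. Background reads are counted in these shares, and their part in the difference was not tested.

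Few regions went from strongly marked to unmarked or the reverse. Of 6597 regions with a progenitor level of 4 or more, 4585 (69.5%) were still at 4 or more at day 1, 1952 (29.6%) were between 2 and 4, 52 were between 1 and 2, and 8 were under 1, that is, under 2-fold over the reference. These 8 had a median of 671 progenitor reads and 28 at day 1. In the other direction, 1 of 92845 regions under 1 in progenitors reached 4 at day 1, region 115841 described above. Reaching 2, which is 4-fold over the reference, was more common: 1795 regions went from under 1 to 2 or more. Falls from 2 or more to under 1 numbered 1051. These counts, as deposited, come from starting classes of unlike size. Of the 92845 regions under 1 in progenitors, 1.93% were between 2 and 4 at day 1. Of the 14678 regions between 2 and 4 in progenitors, 7.11% were under 1 at day 1.

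The regions that crossed between under 1 and 2 or more were wider than most, the median width of all regions being 304 bp. With 16 reads added, a level of 2 takes more than the 17 reads that the median region under 500 bp held at either stage. The greater width of the crossing regions therefore follows in part from the threshold. Those that went up had a median width of 608 bp (quartiles 422 and 835) and a median of 39 progenitor and 173 day 1 reads. Those that went down had a median width of 541 bp (373 and 742.5) and 131 progenitor and 31 day 1 reads. Median levels at day 10 were 0.91 for the first set and 0.44 for the second. Day 10 values here follow from sets picked on the day 1 value, and are given as levels only.

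As deposited and over all regions, region width went with the spread of the difference more than with its centre. Widths ran from 151 to 3320 bp with a median of 304 bp. The 101806 regions under 500 bp had a median difference of -0.04, and the 27727 regions of 500 to under 1000 bp one of -0.11. The median was -0.22 in the 10745 regions of 1000 to under 2000 bp and -0.13 in the 363 wider ones. Quartiles widened from -0.37 and 0.32 in the narrowest class to -0.69 and 0.65 in the widest. At least 2-fold lower were 3.74%, 9.86%, 11.3% and 12.7% of the 4 classes, from narrow to wide, against 5.55% of all regions. At least 2-fold higher were 4.97%, 12.2%, 10.4% and 16.8%, against 6.83%. With equal totals the 4 medians were 0.08, 0.08, 0.00 and 0.10, so the order and the direction of the centres depend on the scale.

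Narrow regions also held few reads, with a median of 17 in progenitors against 947 in the widest class. Among regions with at least 100 reads in both stages together, the narrowest class had shares of 13.3% lower and 16.6% higher, above the 11.4% and 10.5% of regions of 1000 to under 2000 bp. In the same set the distance between the quartiles was 1.29, 1.17, 0.96 and 1.34 in the 4 width classes, from narrow to wide. These 9592 narrow regions were picked by reads that enter the difference, and many could pass through the stage at which they are high, so their shares and quartiles are given as values only.

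**Figure D3:**
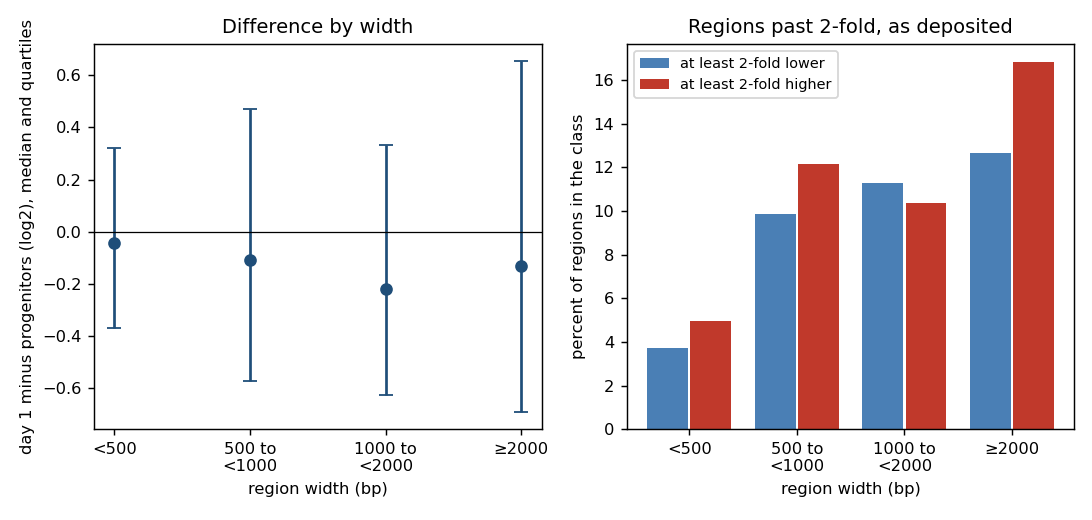
Left, median and quartiles of the H3K27ac difference (log2, as deposited) by region width; right, percent of regions in each width class at least 2-fold lower or higher at day 1. The quartiles widen from -0.37 and 0.32 under 500 bp to -0.69 and 0.65 at 2000 bp and over, and the share past 2-fold is lowest, in both directions, in the narrowest class. With a constant of 1 read in place of 16 (not drawn), the narrowest class has the highest share lower, 17.2%.

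The order of the differences by width depended on how level was classed. Regions were put in 3 equal classes of progenitor level (low up to 0.40, middle up to 1.02, high above). In the low class the median difference was 0.20 under 500 bp, 0.60 at 500 to under 1000 bp and 0.94 at 1000 to under 2000 bp (475 regions). In the middle class these medians were -0.14, 0.24 and 0.54 (894 regions), and in the high class -0.51, -0.37 and -0.30. Within these classes, which the progenitor value sets, wider regions had the higher median, while over all regions they had the lower one. Wide regions lie mostly in the high class, which holds 9376 of the 10745 regions of 1000 to under 2000 bp. The classes of 2000 bp and over held 5 regions at low, 17 at middle and 341 at high level, with medians of 1.83, 0.90 and -0.17; leaving them out does not alter the order of the others.

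With level classed by the progenitor value, wide regions that were weak in progenitors were the most often higher at day 1. At low level, 47.8% of regions of 1000 to under 2000 bp were at least 2-fold higher, and their median reads were 53 in progenitors and 119 at day 1. Under 500 bp the share at low level was 8.16%, with median reads of 10 and 14. From which stages the regions were called is not stated in these sources, and the part of that in these values was not tested. Set by the mean of both stages, the medians of the low class were 0.00, 0.04 and 0.06 (254 regions), of the middle class -0.04, 0.09 and 0.18 (673), and of the high class -0.12, -0.21 and -0.25. With those classes the order with width was seen in the low and middle classes at a smaller size, and in the high class it turned. Set by the day 10 value, which is not part of the difference, the medians were 0.00, 0.09 and -0.12 in the low class, -0.06, -0.04 and -0.12 in the middle class and -0.04, -0.15 and -0.22 in the high class. There the regions of 1000 to under 2000 bp had the lowest of the 3 medians in every class.

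**Figure D4:**
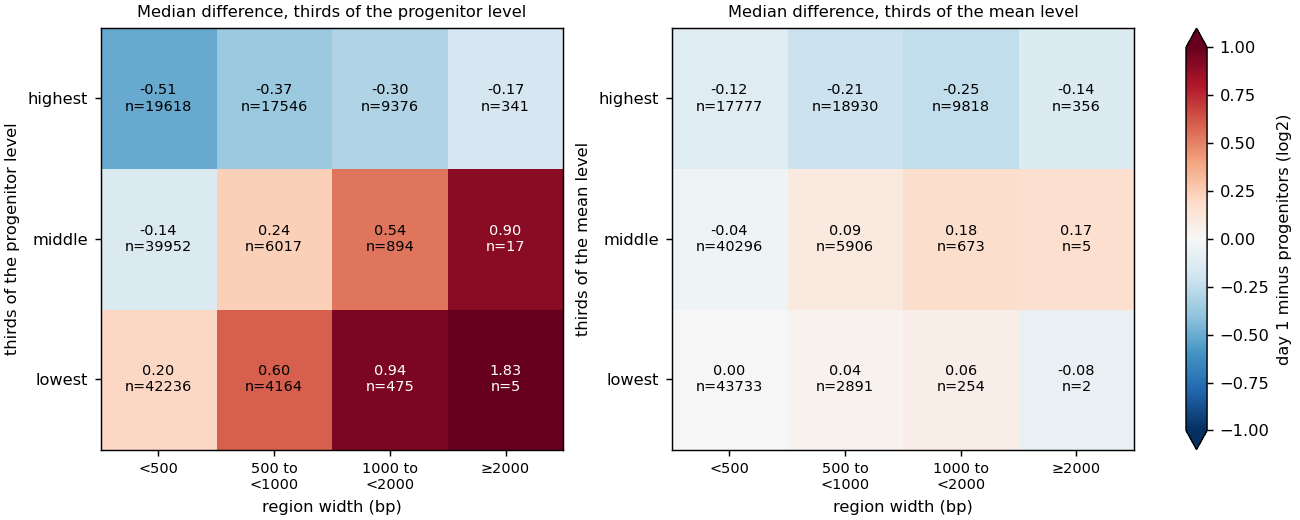
Median H3K27ac difference (log2, as deposited; colour and number, with the count of regions) by region width and by 3 equal classes of level, set by the progenitor value (left) or by the mean of progenitor and day 1 values (right). Medians go from -0.51 to 0.94 on the left and from -0.25 to 0.18 on the right, leaving aside the classes of 2000 bp and over, of which 4 hold under 20 regions; colours are capped at -1 and 1.

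The widest and the strongest regions can be read one by one, since their counts are large. The widest, region 70003 (3320 bp), held 5576 reads in progenitors and 3109 at day 1, which is 1.79-fold lower (1.72 to 1.87). The next in width went the other way: region 41962 (3229 bp) went from 708 to 1996 reads (2.82-fold higher, 2.59 to 3.08) and region 109707 (3187 bp) from 1436 to 4906 (3.42-fold higher, 3.22 to 3.63). The latter had 2668 reads at day 10 and region 41962 had 2084, both still above their progenitor counts.

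The highest progenitor level, 8.19, was that of region 96797, with 8645 reads in progenitors and 6039 at day 1 (1.43-fold lower, 1.39 to 1.48). Region 38659, at 7.87, went from 8621 to 4861 reads (1.77-fold lower, 1.71 to 1.84). Region 82942, at 8.15 in progenitors and with the highest level of all regions at day 1, went from 7507 to 6787 reads (1.11-fold lower, 1.07 to 1.14). Region 78581, which has the third highest day 1 level, went from 4417 to 3781 (1.17-fold lower, 1.12 to 1.22). With equal totals regions 96797 and 38659 remained lower (-0.29 and -0.59), while region 82942 stood at 0.09 and region 78581 at 0.01. Regions 96797 and 82942, at 8.19 and 8.15 in progenitors, had intervals that did not overlap. The intervals take reads as independent, and a difference between these regions was not tested. Spread between libraries could not be seen in merged values, and the regions were picked for their high values at these stages.

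Regions with neighbouring identifiers differed in the same direction. Over 140640 pairs of consecutive numbers, the differences had a Pearson correlation of 0.54, over pairs 10 numbers apart 0.22 and over pairs 50 apart 0.08. Pairs share the libraries and their depth, and the correlation is given as a description. Among regions with at least 100 reads in both stages together it was 0.72 for the 20005 consecutive pairs. Of the regions at least 2-fold lower, 31.4% had a next region by number that was also 2-fold lower, against 5.55% of all regions, and 0.808% had one that was 2-fold higher. Of the regions at least 2-fold higher, 39.7% were followed by another such region, against 6.83%, and 0.531% by one that was 2-fold lower. No source used here says whether the numbers follow the genome.

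As deposited, runs of 5 or more consecutive regions past 2-fold in 1 direction numbered 121 for falls, with 778 of the 7801 lower regions. For rises they numbered 190, with 1180 of the 9608 higher regions. The larger number of higher regions enters the difference between these counts. The runs named next were chosen after their values were seen. The run that holds the largest fall covers regions 111231 to 111242, 12 regions of 5330 bp in sum. Together they held 7118 reads in progenitors, 408 at day 1 and 131 at day 10. Their differences ran from -4.60 to -1.68, largest at region 111238 and smaller to both sides. Regions 111249 and 111250, beyond the run, went from 1171 to 73 and from 1012 to 69 reads, and region 111246 from 386 to 30. The 8 regions before the run went from between 11 and 66 progenitor reads to between 13 and 57, and 1 of them, region 111227, was 2-fold lower (42 to 13 reads).

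The longest run of falls, regions 72987 to 73000, had 14 regions and went from 8089 reads to 1961 at day 1. Region 76528, among the largest falls, lies in a run of 10, regions 76525 to 76534, with 6741 progenitor reads, 955 at day 1 and 412 at day 10. The longest run of rises, regions 35982 to 35998, had 17 regions with 1239 progenitor reads, 4931 at day 1 and 688 at day 10. Within it, region 35998 went from 416 to 1559 reads and back to 180, and region 35987 from 124 to 625 and to 28. None of the 8 regions on either side was 2-fold higher. The next longest run of rises, regions 70036 to 70049, went from 1405 to 5033 reads and still held 3423 at day 10.

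**Figure D5:**
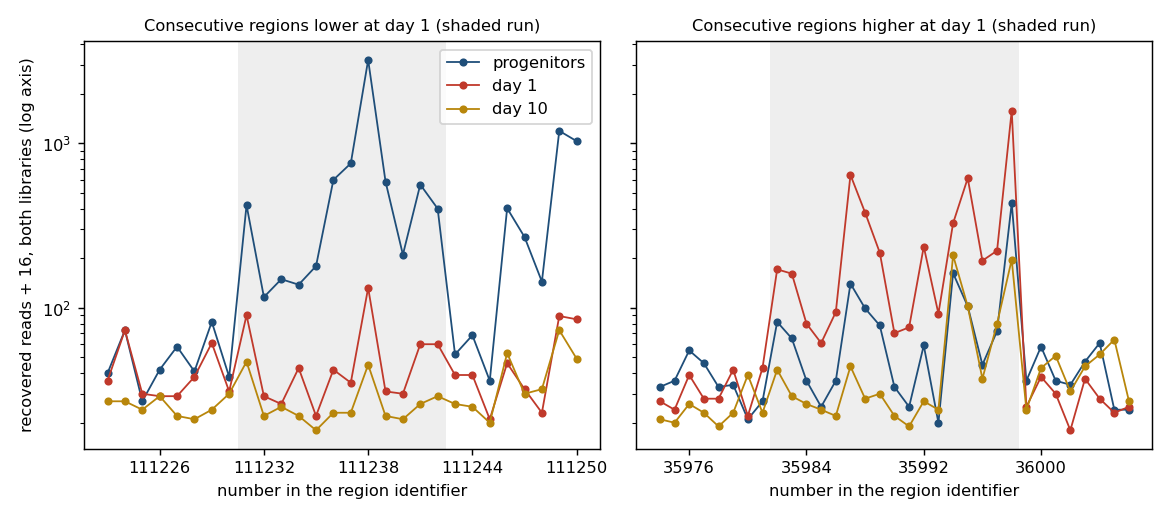
Recovered reads plus 16 (log axis, both libraries of a stage merged) for consecutive region numbers in progenitors, at day 1 and at day 10, around the run of falls that holds region 111238 (left) and the longest run of rises (right); shading marks the runs. On the left progenitors lie above both neuronal stages throughout the shaded run, with a peak of 3187 reads at region 111238, and on the right day 1 lies above both other stages throughout the run.

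The regions past 2-fold in each direction differed in progenitor level, in part because the progenitor value enters the difference that picked them. A region with under 16 progenitor reads also cannot be among the lower ones. The 9608 higher regions had a median level of 0.36 in progenitors, below the 0.66 of all regions, and 1.80 at day 1; their median width was 478 bp and they held 0.517 M reads in progenitors and 1.73 M at day 1. The 7801 lower regions had a median level of 2.18 in progenitors and 0.80 at day 1, with a median width of 511 bp, and held 2.60 M and 0.931 M reads. At day 10 the medians of the 2 sets were 0.65 and 0.72, against 0.63 for all regions. Reference reads per kb had medians of 44.7 in the higher and 31.3 in the lower regions, against 37.8 in those within 2-fold; the part of this in the result was not tested.

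For scale, the other steps of the table share the progenitor or the day 1 libraries with this one, and their values are set side by side. From progenitors to day 1 the median was -0.06 with 5.55% of regions at least 2-fold lower and 6.83% higher. From day 1 to day 10 it was -0.11 with 13.3% and 8.91%, and from progenitors to day 10 -0.12 with 15.1% and 9.88%. For the 2883 regions picked at a progenitor level of at least 5, the medians of the 3 differences were -0.55, -1.09 and -1.65. The progenitor value is part of the first and last of these differences, so their size follows in part from the choice. For regions of at least 1000 bp the 3 medians were -0.22, -0.38 and -0.52. Reads in regions at day 10 came to 11.2 M, lower than at both earlier stages, and the difference between the steps was not tested.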

How the data were processed

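ChIP-seq for H3K27ac was done on 2 libraries each of neuronal progenitors, day 1 and day 10 neurons; groups came from the sample titles. The submitters' processing notes name build mm9 and list TopHat, Bowtie, HTSeq and DESeq; what each did, its version and the peak caller are not given in these sources. The authors deposited log2 enrichment values, 1 per region and stage with both libraries merged, and the region width in bp, per the file headers. In the first 2000 rows, 2 raised to the difference of both columns was a ratio of whole numbers (denominator up to 400) in 95.5%, against 3.05% for base e and 3.65% for base 10. Reads and reference reads were solved from log2((reads + 16)/(0.807 × reference reads + 16)), whole within 0.0001 reads, for 140640 of 140641 regions; the recovery was tested on simulated data. Differences were computed with Python 3.11.15, numpy 2.4.6, pandas 2.3.3 and scipy 1.17.1. Width classes began at 500, 1000 and 2000 bp; a planned class of 4000 bp and over held no region. A test with limma was planned only for values per library and was not run; at least 2-fold means a log2 difference of 1 or more, and differences were rounded to 1e-09 first. Regions named were the 6 largest rises and 6 largest falls with at least 100 reads in both stages together, the 3 widest, and the 3 highest at each stage; others are said to be chosen later or lie in the runs shown. Intervals cover counting error only, since reads without molecular identifiers are not independent molecules. Alternatives were centring, equal totals, the upper part by mean level, a constant of 1 read, regions of at least 1000 bp, other folds and other classings. The comparison, its classes and its thresholds were chosen with earlier results of these data known. FAIRE, NMDA and RNA values were not used here.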

Additional observations from a re-analysis of the deposited data

How the results depend on the processing

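No paired analysis was possible because the result comes from no test: each stage has 1 merged value per region, so leaving out a library and a replicate block were not run. The median difference (-0.06) was -0.062 centred, -0.13 in the regions above the median of the mean level, -0.10 with a constant of 1 read and -0.22 in regions of at least 1000 bp, and it turned to 0.073 with equal totals. The count at least 2-fold lower (7801) was 4700 with equal totals. With a constant of 1 read, 22845 regions were lower and 21890 higher (9608 as deposited); among regions of at least 1000 bp these were 1257 and 1176 of 11108, at 1.5-fold 24111 and 22271, and at 3-fold 1469 and 2589. Regions with at least 100 reads in both stages together, chosen after seeing the data, had a median of -0.16, with 5098 lower and 5861 higher of 42024. Regions of at least 1000 bp minus those under 500 bp differed by -0.17 in median, and the widest minus the narrowest of 10 classes by -0.22. This turned to 0.74, 0.69 and 0.21 in the low, middle and high classes of progenitor level, and was 0.063, 0.22 and -0.13 in those of the mean level and -0.12, -0.070 and -0.18 in those of the day 10 value. The highest minus the lowest class of progenitor level was -0.88 in median, -0.30 by the day 10 value, -0.37 by the mean, -1.40 with a constant of 1 read, -0.75 with equal totals and 0.11 by the day 1 value. In regions of at least 1000 bp, the high minus the low class of progenitor level was -1.24, -0.31 by the mean and -0.11 by the day 10 value. The constant alters the weak regions by its construction, and classing by a stage of the difference fixes part of the slope; the cause of the other shifts was not tested. Depth limits the 32.2% of regions with under 16 progenitor reads, in which a 2-fold fall cannot show.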
